A study of Mus musculus with 12 samples.

Results

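The 41 miRNA names examined here belong to the cluster that runs from miR-379 to miR-410, the distal array of miRNA genes in the imprinted Dlk1-Dio3 region of mouse chromosome 12. They were chosen by name, and all 41 were on the array, among 650 miRNA names in all. The 31 hairpins that encode them span 34.7 kb on the plus strand in RefSeq's annotation (GRCm38.p6, chr12:109709060-109743795). The array files name no genome build, and probes were matched to members by miRNA name.

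Total RNA of mouse embryonic fibroblasts of C57BL/6 background was labelled and hybridised to 12 single-colour arrays, 2 for each of 6 groups. The cells were wild type (ATF6aWT) or lacked ATF6a (ATF6aKO), a membrane-bound transcription factor that is cleaved and released when unfolded proteins build up in the endoplasmic reticulum. Each genotype was left untreated or was given 2 ug/mL tunicamycin, which blocks N-linked glycosylation and so causes such stress, for 12 h or 24 h. The series describes 2 independent experiments per condition. The stage and number of embryos, the passage of the cells and the nature of the ATF6a allele are not given in the sources used here. The array holds no probe for ATF6a mRNA, so the genotype could not be checked.

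The Dlk1-Dio3 region is imprinted: its long noncoding RNAs Meg3, Rian and Mirg and its miRNAs are expressed from the maternal chromosome, and the protein-coding genes Dlk1, Rtl1 and Dio3 from the paternal one. The miRNAs of this cluster are cut from long transcripts that run through the region, many of them from introns, and they are best known from brain, placenta and the newborn liver. A hairpin can give a mature miRNA from each arm. The older names on the array mark the less abundant arm with a star. The seed, bases 2 to 8 counted from the 5′ end, pairs with target messages.

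Of the 41 names, 35 were paired with a mature sequence of RefSeq. For 8 the name was the same, and for 27 the arm was taken from the older name. No 2 of the 35 had the same seed. The first set below holds the 8 members that were lower in untreated knockout cells and were measured on all 4 untreated arrays. The seed stands in capitals, and the mouse prefix is dropped from names after these lines.
mmu-miR-379: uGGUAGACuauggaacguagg
mmu-miR-495: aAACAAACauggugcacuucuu
mmu-miR-376a: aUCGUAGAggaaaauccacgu
mmu-miR-300: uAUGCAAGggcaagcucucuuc
mmu-miR-382: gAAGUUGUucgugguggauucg
mmu-miR-154*: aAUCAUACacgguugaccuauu
mmu-miR-377: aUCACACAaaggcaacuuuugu
mmu-miR-410: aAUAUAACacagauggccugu

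These sequences come from chr12:109709065-109709085 (miR-379), chr12:109718795-109718816 (miR-495), chr12:109723824-109723844 (miR-376a), chr12:109724363-109724384 (miR-300), chr12:109733781-109733802 (miR-382), chr12:109738474-109738495 (miR-154*), chr12:109740553-109740574 (miR-377) and chr12:109743764-109743784 (miR-410). Within the cluster, 6 pairs of seeds differed at 1 base. The next set holds partners of 3 members above, shown so that the seeds can be compared. From miR-379 to miR-411 the seed changes by G2A, from miR-376a to miR-376b by G4A, and from miR-300 to miR-381 by G4A. Positions are counted from the 5′ end of the mature miRNA.
mmu-miR-411: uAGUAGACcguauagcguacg
mmu-miR-376b: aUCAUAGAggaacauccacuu
mmu-miR-381: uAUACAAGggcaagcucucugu

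Both arms were tested for 4 hairpins, those of miR-411, miR-376a, miR-154 and miR-409. They are printed with each mature arm in capitals, since the paired arms come from the same precursor and give a comparison within a hairpin.
Mir411: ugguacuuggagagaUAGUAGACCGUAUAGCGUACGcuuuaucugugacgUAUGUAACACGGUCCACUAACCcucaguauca
Mir376a: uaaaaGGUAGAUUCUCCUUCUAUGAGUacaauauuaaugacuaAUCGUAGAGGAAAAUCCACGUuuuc
Mir154: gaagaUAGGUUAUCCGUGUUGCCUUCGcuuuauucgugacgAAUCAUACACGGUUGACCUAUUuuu
Mir409: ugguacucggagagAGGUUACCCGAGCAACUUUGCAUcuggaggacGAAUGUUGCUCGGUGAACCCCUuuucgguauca

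The cluster was detected best in untreated wild type cells. There 24 and 23 members were well above background, by the scanner software's flag on more than 0.5 of a probe's spots. Untreated knockout arrays had 19 and 22. After 12 h of tunicamycin the wild type arrays had 14 and 10 and the knockout arrays 12 and 5. After 24 h the wild type arrays had 15 and 3 and the knockout arrays 17 and 3. The lower number of each treated pair belongs to replicate 2, scanned in run 4. Runs 1 to 4 are numbered here by the order of the scan dates in the headers, which name no runs. In that run the lowest log2 value well above background lay between -3.67 and -2.87, against -5.65 to -4.75 on the other 8 arrays.

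The number of all 650 miRNAs well above background was 168 and 160 in untreated wild type and 163 and 170 in untreated knockout cells. It was 85 and 91 on the 2 arrays with 3 members, and 171 on the first knockout array at 24 h, which had 17 members. The number of members thus moved with that of all miRNAs on the second replicates at 24 h, but not on that first array.

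**Figure D1:**
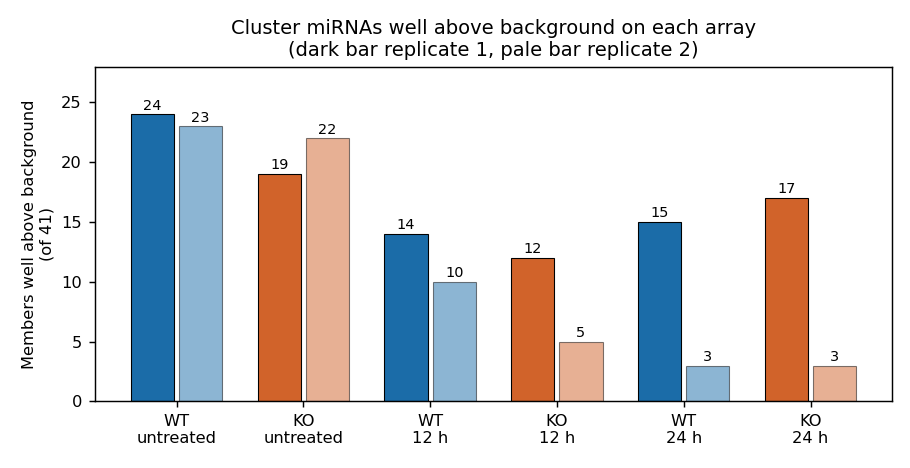
Number of the 41 cluster miRNAs well above background on each of the 12 arrays (y axis), by genotype and hours of tunicamycin (x axis; WT wild type, KO ATF6a knockout; dark bars replicate 1, pale bars replicate 2). Untreated wild type arrays had 24 and 23, and the second treated replicates had 3 to 10.

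A miRNA was tested if 1 of its probes passed this flag on the 2 arrays of any group. This held for 23 members from 19 hairpins. All 23 passed through untreated wild type cells, and 4 of them (miR-543, miR-376a*, miR-134 and miR-409-5p) through that group alone, so a direction with untreated wild type highest was partly set by the filter. Only 8 passed through a treated group as well, and 15 passed through untreated groups only, so that a fall under tunicamycin was partly set by the filter in those 15. Of the 18 others, 15 were flagged on no array. miR-299 was flagged on 1 array, and miR-667 and miR-485* on 2 each. The untested names included miR-323-3p, both arms of miR-380, miR-381, miR-487b, miR-539, miR-485 and miR-412.

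Values are log2 of the processed intensity divided by the array's own 75th percentile, which was taken over the 87 probes flagged on all 12 arrays. Signals under a common floor of -5.02 were set to it. A member is called measured on an array if it was flagged and no probe used lay at the floor. Treated arrays shared slide 2 and untreated arrays slide 1, and wild type arrays had row position 1 and knockout arrays 2 on each slide. Treatment and slide, and genotype and position, therefore cannot be told apart. Of 11 fibroblast and mesenchymal markers 10 were flagged on at least 1 array and 7 on all 12, while none of the blood, epithelial, nerve cell, endothelial and liver markers was flagged. miR-206 of muscle and miR-294 of embryonic stem cells were flagged on some arrays. In bulk RNA, fewer cells that express a miRNA and less of it per cell cannot be told apart.

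The first comparison asked how the cluster differed between genotypes without stress. Of the 19 members that passed the filter through both untreated groups, 14 were lower in untreated knockout cells and 0 were higher (limma, adjusted p under 0.05), with a median log2 difference of -0.84. The 4 that passed through wild type cells alone were lower too, as the filter favours, which makes 18 of 23. Of all 175 tested miRNAs, which went through the same filter, 24.6% were lower and 3.43% higher, with a median of -0.13. The calls hold for the scaling used here: with scaling on all probes, with normexp background correction or in the deposited table none of the members passed, while the members' median stayed below 0 (-0.42, -0.58 and -0.36). Of all miRNAs 0, 0 and 1 passed there. Both knockout arrays lay below both wild type arrays for 22 of the 23, as they did for 48.6% of all tested miRNAs. In each of the 15 members read by 2 probes, both probes were lower.

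Among members measured on all 4 arrays, miR-379, the first hairpin of the cluster, had values of -1.23 and -1.29 in wild type and -2.30 and -2.31 in knockout cells. The difference was -1.05 ± 0.25 (SE, 2 arrays a group; limma, adjusted p = 0.0175). The 2 arrays of each genotype lay within 0.1 of each other here. miR-495, from the middle of the cluster, read -3.17 and -3.14 in wild type and -4.33 and -4.12 in knockout cells, a difference of -1.07 ± 0.24 (adjusted p = 0.0122). miR-376a, one of a family of 3 related hairpins, read -2.52 and -2.65 against -3.45 and -3.58, a difference of -0.93 ± 0.18 (adjusted p = 0.00626). miR-300 read -2.66 and -2.63 against -3.58 and -3.42, a difference of -0.85 ± 0.11 (adjusted p = 0.00121). In all of these the genotypes were separate.

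Further along the cluster miR-382 read -3.74 and -3.69 in wild type and -4.55 and -4.59 in knockout cells, a difference of -0.85 ± 0.14 (limma, adjusted p = 0.00272). miR-154* read -3.90 and -3.92 against -4.75 and -4.67, a difference of -0.80 ± 0.06 (adjusted p = 8.33e-05). miR-377 read -2.46 and -2.51 against -3.52 and -3.46, a difference of -1.01 ± 0.19 (adjusted p = 0.00548). These hairpins lie 24.7 to 31.4 kb from that of miR-379. miR-410, the last hairpin, read -2.15 and -2.24 against -3.31 and -3.21, a difference of -1.06 ± 0.19 (adjusted p = 0.00451). The ends of the cluster, miR-379 and miR-410, thus differed by like amounts.

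**Figure D2:**
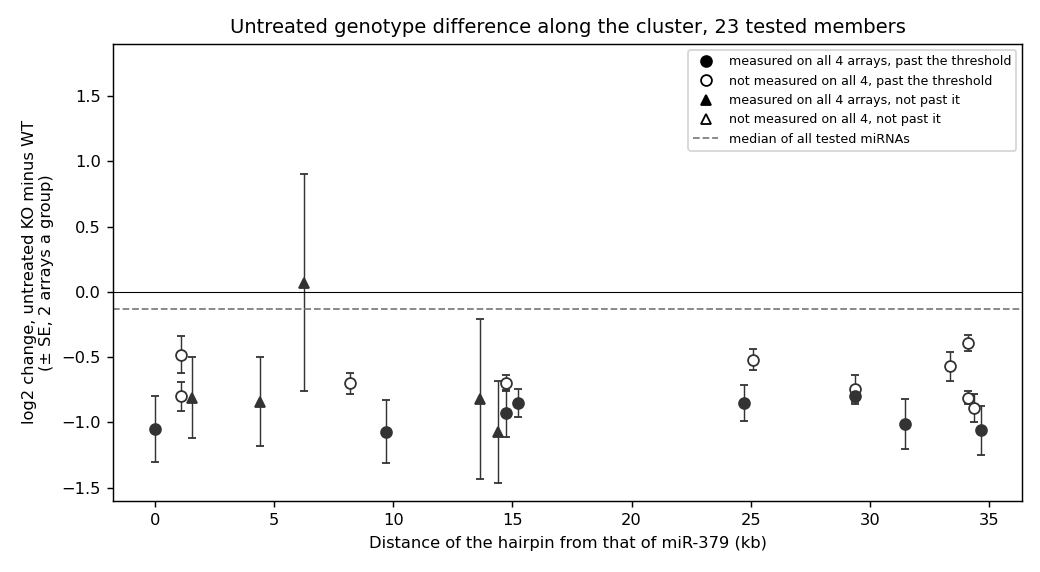
Untreated knockout minus wild type difference of each of the 23 tested members (y axis, log2, bars ± SE, 2 arrays a group) against the distance of its hairpin from that of miR-379 (x axis, kb). Filled symbols were measured on all 4 arrays, circles passed the threshold, and the dashed line is the median of all 175 tested miRNAs; every member but miR-494 lies below 0.

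The other 10 of the 18 had a probe at the floor on at least 1 array, so their sizes are limited by the floor and their spread is lowered by it. For miR-409-3p the values were -4.09 and -4.10 in wild type and -4.93 and -4.89 in knockout cells (difference -0.81, limma, adjusted p = 8.33e-05). For miR-369-5p they were -4.05 and -4.16 against -4.97 and -5.02 (-0.89, adjusted p = 0.00121). For miR-154 they were -3.98 and -3.83 against -4.64 and -4.64 (-0.74, adjusted p = 0.00138). Knockout values near -5 carry no order among themselves. For miR-411 they were -3.75 and -3.65 against -4.55 and -4.46 (-0.80, adjusted p = 0.00153). For miR-541 they were -4.02 and -4.00 against -4.58 and -4.58 (-0.57, adjusted p = 0.00707). For miR-411* they were -3.91 and -4.19 against -4.57 and -4.49 (-0.48, adjusted p = 0.0332).

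The remaining 4 passed the filter through untreated wild type cells alone and were at the floor in both knockout samples. miR-543 read -4.44 and -4.19 in wild type cells (limma, adjusted p = 0.000921). miR-376a* read -4.30 and -4.33 (adjusted p = 0.000171). Both were also well above background on the second untreated knockout array, as was miR-134, so the floor hides the sizes of these differences. miR-134, known in neurons for its effect on dendritic spines, read -4.44 and -4.56 (adjusted p = 0.00272), but was higher in knockout cells by 0.80 with the signal that the scanner software sums per miRNA, and by 1.36 in the authors' deposited log2 table. miR-543 also turned to 0.28 in the deposited table. miR-409-5p, not well above background on either knockout array, read -4.58 and -4.67 and was at least 1.31-fold lower in knockout cells (adjusted p = 0.00158). For such a bound the mean of the brighter group is set against a limit of the dimmer one: per array, the dim probe's signal or the weakest flagged signal, whichever is larger.

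In the hairpins with both arms tested, both arms were lower. The differences were -0.80 and -0.48 for miR-411 and miR-411*, and -0.93 and -0.70 for miR-376a and miR-376a*. They were -0.74 and -0.80 for miR-154 and miR-154*, and -0.81 and -0.39 for miR-409-3p and miR-409-5p. Floor values enter at least 1 arm of every pair, so the arms' sizes were not compared.

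Another 5 members did not pass the threshold. miR-299* differed by -0.81 ± 0.31 (limma, adjusted p = 0.104), miR-329 by -0.84 ± 0.34 (adjusted p = 0.118), miR-376b by -1.07 ± 0.39 (adjusted p = 0.0855) and miR-376c by -0.82 ± 0.61 (adjusted p = 0.409), all with separate genotypes on these 4 arrays. The deposited table turned miR-376b to 0.64 and miR-376c to 0.25. The SE of each member holds its spread over all 12 arrays, which was wide for miR-376c under tunicamycin. miR-494 was the exception: it read -4.93 and -4.71 in wild type and -4.91 and -4.59 in knockout cells, a difference of 0.07 ± 0.83.

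The size of the genotype difference rested on the scaling, more in run 1 than in run 2. In run 1 the scaling value was 630 on the knockout and 373 on the wild type array, and in run 2 it was 467 and 418. Before scaling, the median log2 ratio of the 23 members was -0.21 in run 1 and -0.74 in run 2, with 21 and 22 of them lower. After scaling it was -0.82 and -0.81. miR-379 had unscaled intensities of 196 and 198 in wild type and 163 and 115 in knockout cells. miR-329, whose unscaled intensities in run 1 were 48.0 in wild type and 48.2 in knockout cells, had 55.9 and 35.2 in run 2. The gap between the medians of the cluster and of all tested miRNAs was -0.69 as reported, -0.65 when arrays were scaled on all probes, -0.52 with quantile normalization, -0.62 in the deposited, unscaled table and -0.26 with the normexp background correction. Scaling on all probes moved the median of all miRNAs by 0.36. It left 0 members and 0 of all 175 miRNAs past the threshold, with 5 of the 175 at an unadjusted p under 0.05 in limma. Quantile normalization left 3, where 6 of all 175 miRNAs passed. The summed signal left 3 of 29 members, where 8 of all 204 passed. Normexp left 0 and so did the deposited values, with 19 and 10 of all miRNAs tested there at an unadjusted p under 0.05 in limma. Of all miRNAs 0 passed the threshold with normexp and 1 with the deposited values.

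**Figure D3:**
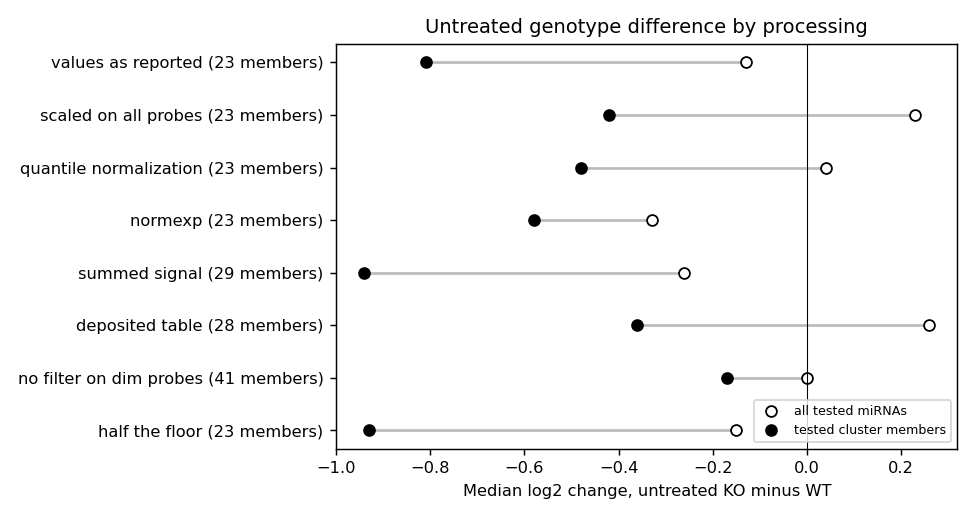
Median log2 difference between untreated knockout and wild type cells (x axis) over the tested cluster members (filled) and over all tested miRNAs (hollow) under several ways of processing (y axis, with the number of members tested). The members' median lies below that of all miRNAs in each row, from -0.94 with the summed signal to -0.17 without a filter on dim probes.

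The proximal miRNAs of the same region, which lie between Meg3 and the miR-379 hairpin, were counted for comparison. Of 22 on the array 10 were tested. Of these 9 were lower in untreated knockout cells and 0 higher, with a median of -0.76. Of all tested miRNAs 24.6% were lower and 3.43% higher. None of the proximal miRNAs was flagged on every array. How many passed the filter through untreated wild type cells alone was not counted. Whether their calls hold under the other ways of scaling was not tested. Both limits also apply to the counts of proximal miRNAs given further below. Of the 10 tested fibroblast markers 1 was lower, with a median of -0.09.

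The next comparison asked how the cluster changed under tunicamycin in wild type cells. Of the 8 members that passed the filter through a treated group, 3 fell at 12 h and at 24 h, namely miR-379, miR-376a and miR-300, and 0 rose. A share of 3 in 8 is near that of all tested miRNAs, of which 38.3% were lower at 12 h and 33.7% at 24 h. That whole set also holds miRNAs that passed through untreated groups only, so the sets are not alike. The 15 that passed through untreated groups only had 14 lower at 12 h and 15 at 24 h, a direction that the filter favours. Together these make 17 and 18 of 23, where 38.3% of all tested miRNAs were lower and 6.29% higher at 12 h, and 33.7% and 7.43% at 24 h. With scaling on all probes, with normexp or in the deposited table none of the members passed at either time (limma; 11 to 28 of all miRNAs at an unadjusted p under 0.05). At most 3 of all miRNAs passed in any of these fits. The members' median turned to 0.16 at 12 h in the deposited table and to 0.14 at 24 h with normexp. The fibroblast markers moved in the same direction, with 8 of 10 lower at 12 h (median -0.86) and 9 of 10 at 24 h (median -0.89), and the proximal miRNAs had 10 of 10 lower at both times (medians -0.83 and -0.79). The part of slide and of the shallower run 4 in these changes was not tested beyond the values given here.

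Only 8 members were measured on all 4 arrays at 12 h, and 3 of them fell. miR-379 read -2.79 and -2.23 at 12 h against -1.23 and -1.29 untreated, a change of -1.25 ± 0.25 (limma, adjusted p = 0.00575). At 24 h it read -2.28 and -2.13, a change of -0.95 ± 0.25 (adjusted p = 0.018). Each treated array lay below both untreated arrays. miR-376a read -3.62 and -3.17 at 12 h against -2.52 and -2.65 (-0.81 ± 0.18, adjusted p = 0.00842). At 24 h it read -3.97 and -4.29 (-1.55 ± 0.18, adjusted p = 0.000787), the second below background. miR-300 was the third, and the only other one measured and called at 24 h. It read -3.44 and -3.36 at 12 h (-0.75 ± 0.11, adjusted p = 0.0015) and -3.33 and -3.55 at 24 h (-0.80 ± 0.11, adjusted p = 0.00144). Its direction was not stable: it turned to 0.66 and 0.74 with the summed signal, and the deposited table had 1.10 and 0.51.

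**Figure D4:**
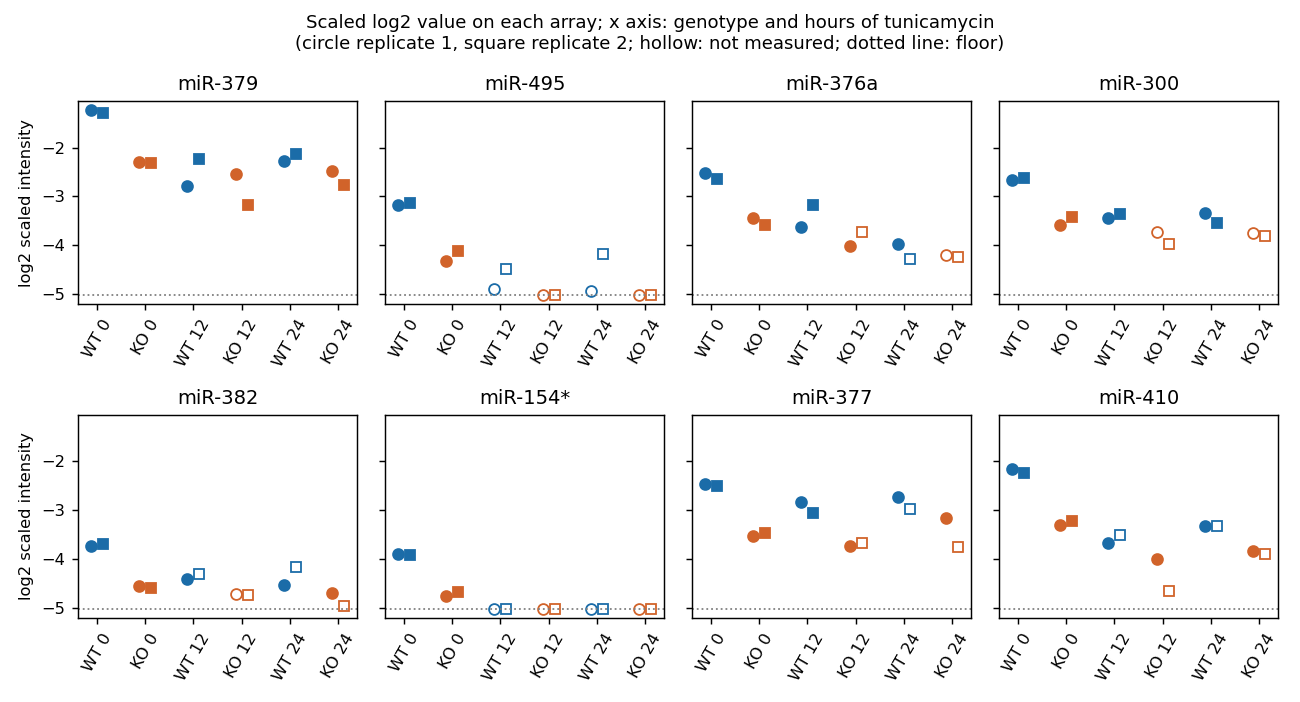
Scaled log2 value (y axis) of 8 members on each of the 12 arrays, by genotype and hours of tunicamycin (x axis; circles replicate 1, squares replicate 2; hollow symbols not measured; dotted line the floor). The 8 were chosen as lower in untreated knockout than in untreated wild type cells, so that order is set by the choice. For all 8 the untreated wild type arrays are the highest, and miR-154* lies at the floor on every treated array.

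miR-410 was measured on replicate 1 of each treated pair. It read -3.66 and -3.50 at 12 h against -2.15 and -2.24 (-1.38 ± 0.19, limma, adjusted p = 0.00135) and -3.33 and -3.32 at 24 h (-1.13 ± 0.19, adjusted p = 0.00299). miR-382 read -4.40 and -4.31 at 12 h (-0.63 ± 0.14, adjusted p = 0.00765) and -4.54 and -4.17 at 24 h (-0.64 ± 0.14, adjusted p = 0.00742). Its 12 h change was 0.42 with the summed signal and 0.86 in the authors' values. miR-411 read -4.68 and -4.51 at 12 h (-0.89, adjusted p = 0.00112) and -4.49 and -4.40 at 24 h (-0.74, adjusted p = 0.00193). miR-154 read -4.57 and -4.73 at 12 h (-0.75, adjusted p = 0.00123) and -4.64 and -4.51 at 24 h (-0.68, adjusted p = 0.00171). For miR-411 and miR-154 a treated probe lay at the floor, and the 24 h change turned to 0.14 and 0.25 with normexp. miR-154 turned to 1.78 at 12 h in the deposited table. miR-411* read -4.63 and -4.92 at 24 h (-0.73, adjusted p = 0.00419), and turned to 0.19 with normexp. miR-541 fell by 0.37 at 12 h (adjusted p = 0.0325) and by 0.55 at 24 h (adjusted p = 0.00673), with the second treated array below background each time. miR-369-5p fell by 0.54 at 24 h (adjusted p = 0.00742).

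Members below background on both treated arrays have only a bound. miR-495 read -4.89 and -4.49 at 12 h and was at least 2.18-fold lower than untreated (limma, adjusted p = 0.00183). At 24 h it read -4.93 and -4.18 and was at least 1.68-fold lower (adjusted p = 0.00289). It had the largest bound of the cluster at either time, though the deposited table turned its 12 h change to 2.28. miR-376b was at least 1.48-fold lower at 12 h (adjusted p = 0.0389) and 1.12-fold at 24 h (adjusted p = 0.0365). miR-154*, at the floor on all 4 treated wild type arrays, was at least 1.35-fold lower at 12 h and 1.02-fold at 24 h (adjusted p = 1.33e-05 at both times). The weakest flagged signal, which is high in run 4, enters each of these bounds. Values at the floor also lower the spread behind the p of these members. miR-409-3p, at -4.93 and -4.97, was at least 1.15-fold lower at 12 h (adjusted p = 4.65e-05), but its change was 0.78 in the deposited table. miR-369-5p, at -4.85 and -5.02, was at least 1.11-fold lower (adjusted p = 0.00125). miR-543 and miR-376a*, both at the floor on both 12 h arrays, were at least 1.02-fold lower (adjusted p = 0.000753 and 0.000146).

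No bound above 1 could be given for the rest. miR-134 read -4.79 and -5.02 at 12 h (limma, adjusted p = 0.00678) and lay at the floor at 24 h (adjusted p = 0.00244). miR-409-5p lay at the floor at both times (adjusted p = 0.00138 and 0.00144). At 24 h miR-543 and miR-409-3p also lay at the floor (adjusted p = 0.000787 and 2.77e-05), and miR-376a* read -5.02 and -4.93 (adjusted p = 0.000218). These values lay at or just above the floor, so the size of the fall is not known. The 12 h change of miR-134 was 1.04 with the summed signal and 4.49 in the authors' values, so its direction turned.

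miR-494 and miR-376c departed from the pattern. miR-494 read -4.93 and -4.71 in untreated wild type cells and -1.48 and -3.41 at 12 h, a change of 2.37 ± 0.83 that did not pass the threshold (limma, adjusted p = 0.0514). At 24 h it read -4.22 and -5.02. In knockout cells it read -4.91 and -4.59 untreated, -1.76 and -3.97 at 12 h, and -2.70 and -3.27 at 24 h. All 4 arrays at 12 h thus lay above all 4 untreated arrays, by amounts that differed between replicates, although the second knockout value at 12 h was below background. The 12 h changes of miR-494 were positive in both genotypes under each scaling, background and signal alternative, between 0.98 and 2.67 in wild type and between 1.00 and 2.90 in knockout cells. miR-376c read -3.44 and -3.43 untreated and -4.00 and -1.85 at 12 h in wild type cells. Its fitted change of 0.51 ± 0.61 rested on the second array, and without the second treated replicates it was -0.56. Scaling on all probes gave -0.16.

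In knockout cells at 12 h, 2 of 23 members were lower than in untreated cells and 0 higher, where 14.3% of all tested miRNAs were lower and 2.86% higher. This count rose without the first knockout array at 12 h or without all second treated replicates, as did that of all tested miRNAs. The members' median change was then -0.16 and -0.17, against -0.23 and -0.02 over all. At 24 h 1 was lower and 0 higher, where 8.0% of all were lower and 2.29% higher. With all arrays the median changes were -0.15 at 12 h and -0.14 at 24 h, against -0.09 and 0.0 over all tested miRNAs. The count at 24 h fell without either knockout array of that time, and rose without either knockout array at 12 h. It also rose without all second treated replicates. The count of all tested miRNAs moved the same way each time. The members' median at 24 h was -0.17 without its first knockout array and -0.12 without its second, against -0.11 and 0.0 over all. Without all second treated replicates it was -0.12 against 0.0. Only miR-379 and miR-299* were measured on all 4 arrays at each time, and 4 members lay at the floor in untreated knockout cells, where no fall could be recorded. Of the fibroblast markers 5 of 10 were lower at 12 h and 4 of 10 at 24 h (medians -0.68 and -0.71). Of the proximal miRNAs 2 of 10 were lower at 12 h and 1 at 24 h.

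The members called lower were miR-410 and miR-154*. Both passed the filter through untreated groups only, a direction that the filter favours. Of the 8 that passed through a treated group, 0 were lower at either time. miR-410 read -3.99 and -4.66 at 12 h against -3.31 and -3.21 untreated, a change of -1.07 ± 0.19 (limma, adjusted p = 0.00916). At 24 h it read -3.83 and -3.90 (-0.60 ± 0.19, adjusted p = 0.0931). miR-154* went from -4.75 and -4.67 to the floor on all 4 treated arrays (adjusted p = 0.00916 at 12 h and 0.0113 at 24 h), and was 0.19 at 24 h with normexp. No bound above 1 could be given for it at either time, so the size of its fall is not known. miR-495 also lay at the floor on all 4, from -4.33 and -4.12, and did not pass (adjusted p = 0.0647 and 0.0775). miR-300 read -3.73 and -3.97 at 12 h (-0.35 ± 0.11, adjusted p = 0.0759) and -3.75 and -3.81 at 24 h (-0.28 ± 0.11, adjusted p = 0.169). miR-376a read -4.19 and -4.24 at 24 h (-0.70 ± 0.18, adjusted p = 0.0538). miR-154 read -4.86 and -5.02 at 12 h (-0.30, adjusted p = 0.0892). miR-379, measured on every array, read -2.53 and -3.18 at 12 h and -2.48 and -2.76 at 24 h, against -2.30 and -2.31 untreated. Neither change passed (-0.55 ± 0.25 with adjusted p = 0.191, then -0.32 ± 0.25 with adjusted p = 0.537).

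With tunicamycin present, no member passed between the genotypes when no block was fitted. At 12 h 0 of 23 passed, where 7.43% of all tested miRNAs did, and the members' median was -0.29 against -0.01. In limma 7 members had an unadjusted p under 0.05. At 24 h 0 passed, where 9.71% of all did, with a median of -0.19 against -0.02 and 6 members at an unadjusted p under 0.05. With the run as a block, miR-300, miR-377 and miR-541 were lower in knockout cells at 12 h (limma, adjusted p = 0.0485, 0.0394 and 0.0485), and 0 members passed at 24 h (44 of all miRNAs at an unadjusted p under 0.05). Both comparisons share their arrays with those above. Only miR-379 and miR-299* were measured on all 4 arrays at either time.

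The members with the smallest p at 12 h were miR-300, miR-377, miR-410, miR-541 and miR-154. miR-377 read -2.82 and -3.06 in wild type and -3.74 and -3.67 in knockout cells (-0.76 ± 0.19, limma, adjusted p = 0.0519). miR-300 read -3.44 and -3.36 against -3.73 and -3.97 (-0.46 ± 0.11, adjusted p = 0.0519), and was 0.09 with the summed signal and 0.49 in the authors' values. miR-410 read -3.66 and -3.50 against -3.99 and -4.66 (-0.74 ± 0.19, adjusted p = 0.0544). Of these 3, miR-377 was not measured on the second knockout array, and miR-410 was not measured on the second array of either genotype. miR-300 was measured on neither knockout array. miR-541 read -4.39 and -4.37 against -4.72 and -4.90 (-0.43, adjusted p = 0.0569), and miR-154 read -4.57 and -4.73 against -4.86 and -5.02 (-0.29, adjusted p = 0.159). miR-541 and miR-154 had a probe at the floor or below background on all 4 arrays.

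At 24 h the members were miR-382, miR-377, miR-300, miR-410 and miR-541. miR-382 read -4.54 and -4.17 in wild type and -4.70 and -4.97 in knockout cells (-0.48 ± 0.14, limma, adjusted p = 0.0791). miR-377 read -2.72 and -2.97 against -3.16 and -3.75 (-0.61 ± 0.19, adjusted p = 0.0985). miR-300 read -3.33 and -3.55 against -3.75 and -3.81 (-0.34 ± 0.11, adjusted p = 0.108). In miR-382, miR-377 and miR-300 both knockout values were below both wild type values, but these members were picked by p. The share of all tested miRNAs with such a separation at 24 h is not given here. miR-382 and miR-377 were below background on the second array of each genotype. miR-300 had a floored probe in each knockout sample. miR-410 read -3.33 and -3.32 against -3.83 and -3.90 (-0.54 ± 0.19, adjusted p = 0.14), and was 0.55 with the summed signal and 1.09 in the authors' values. miR-541 read -4.50 and -4.62 against -4.70 and -5.02 (-0.30, adjusted p = 0.169).

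The last comparison asked whether the response to tunicamycin differed between genotypes, as the difference between the knockout and the wild type change. At 12 h 7 of 23 members had a higher value in this sense (a smaller fall in knockout cells) and 0 a lower one, where 8.57% of all tested miRNAs were higher and 1.14% lower. At 24 h 8 were higher and 0 lower, where 10.3% of all were higher and 2.86% lower. These counts were 0 at both times with scaling on all probes, quantile normalization, normexp or the deposited table. So were those of all miRNAs (limma; 1 to 11 at an unadjusted p under 0.05). With 0.5 times the floor the members' counts were 2 and 3, where 6 and 9 of all miRNAs passed. Leaving out 1 array moved the members' counts over 4 to 9 and 4 to 13, the lowest 12 h count being without the second wild type array at 12 h and the highest 24 h count without either knockout array at 12 h. All of these members passed the filter through untreated groups only. The 7 were miR-411, miR-543, miR-376a*, miR-154*, miR-409-3p, miR-409-5p and miR-369-5p, and at 24 h miR-134 joined them. The differences lay between 0.39 (miR-409-5p) and 0.81 (miR-369-5p) at 12 h and between 0.39 (miR-409-5p) and 0.81 (miR-409-3p) at 24 h. Their untreated and treated wild type values are given above, except for miR-369-5p at 24 h in wild type cells (-4.74 and -4.53). On treated knockout arrays miR-154*, miR-409-3p, miR-409-5p, miR-543 and miR-134 lay at the floor. There miR-411 read -4.58 and -4.87 at 12 h and -4.59 and -4.67 at 24 h. miR-369-5p read -5.02 and -5.02, then -4.75 and -5.00. miR-376a* read -5.02 and -5.02, then -4.96 and -5.02.

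None of these members was measured on all 8 arrays of its comparison, and the floor bears on them directly. miR-154* fell by 1.10 in wild type cells at 12 h, but in untreated knockout cells it lay only 0.31 above the floor, so a fall of more than 0.31 could not be recorded there. miR-411 fell by 0.89 in wild type cells and lay 0.51 above the floor in untreated knockout cells. miR-543, miR-376a*, miR-134 and miR-409-5p lay at the floor in untreated knockout cells, where no fall could be recorded. In 7 of 7 members called at 12 h and 8 of 8 called at 24 h, the wild type fall was larger than the distance to the floor in knockout cells. Among members not called this was so for 5 of 16 and 7 of 15. A fall of equal size in both genotypes would therefore also have been recorded as a difference in these members, though not always of the size seen. In knockout cells miR-411 changed by -0.22 at 12 h and -0.13 at 24 h, less than the 0.51 that the floor allowed. miR-369-5p changed by 0.12 there at 24 h. How much of each difference comes from the floor was not tested.

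The response could be compared without the floor in miR-379 and miR-299*. For miR-379 the difference between responses was 0.70 ± 0.35 at 12 h and 0.63 ± 0.35 at 24 h (adjusted p of 0.295, then 0.317, by limma). For miR-299* it was 0.56 ± 0.44 and 0.46 ± 0.44 (adjusted p = 0.561 and 0.591). Neither passed. When arrays were scaled on all probes, miR-379 was 0.34 and -0.20 and miR-299* -0.10 and -0.26.

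**Figure D5:**
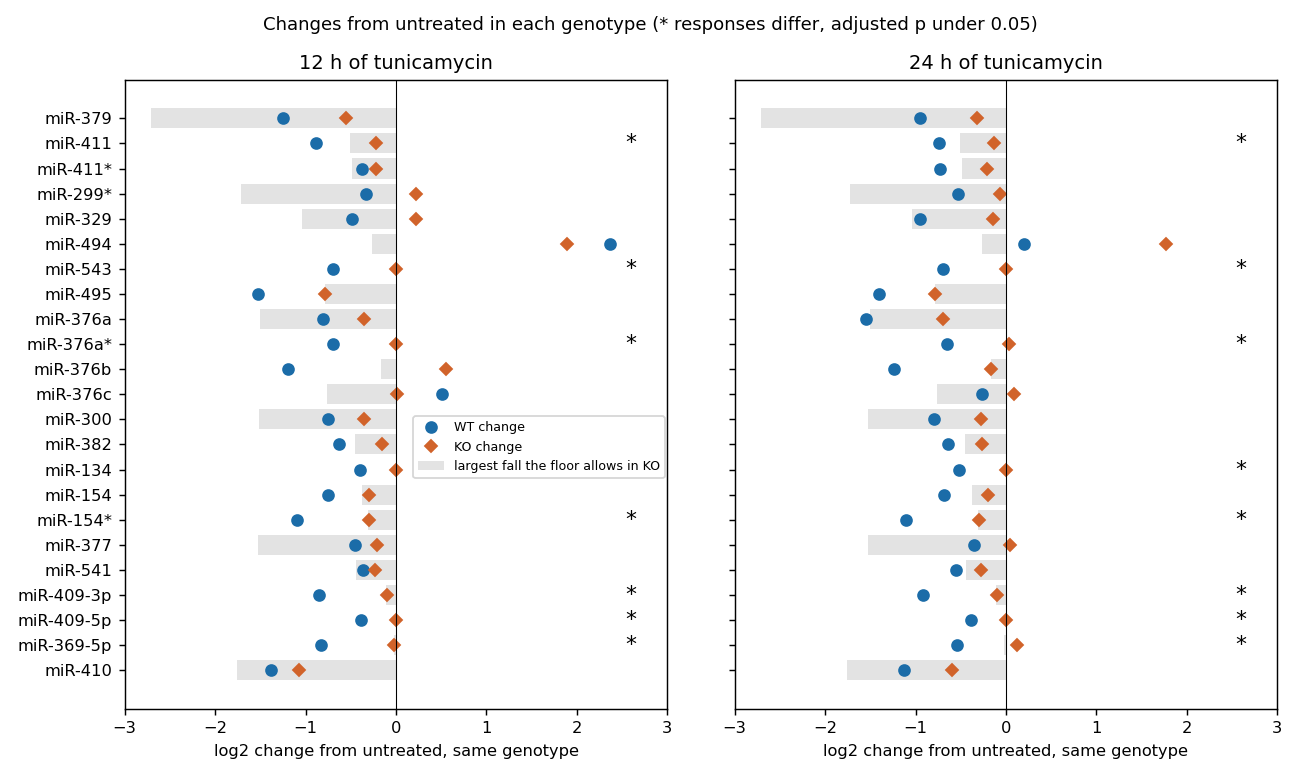
Log2 change from untreated cells of the same genotype (x axis) for the 23 tested members (y axis) at 12 h (left) and 24 h (right); circles wild type, diamonds knockout, stars on the right members whose responses differed (limma, adjusted p under 0.05). Grey bars show the largest fall that the floor allows in knockout cells; in every starred member the wild type fall reaches past the grey bar.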

How the data were processed

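Groups and replicate numbers come from the labels. The authors deposited Agilent Feature Extraction 10.7.1.1 files, whose processed spot intensity is background-subtracted and on a linear scale, per the file headers, and a series table of log2 values. The deposited log2 values equal log2 of the summed signal of detected miRNAs on the same array, without scaling. Per the labels' protocols, 100 ng of total RNA was labelled with Cy3 for each array. An array gives no read depth, and the number of arrays limits the precision.

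Control and outlier spots were dropped, and saturation occurred nowhere. After averaging the spots of each probe, arrays were scaled (75th percentile over 87 probes), floored at 0.03091 on the scaled linear scale and log2-transformed, and 306 probes of 175 miRNAs were averaged per miRNA. limma 3.58.1 in R 4.3.3 (lmFit and eBayes, 6 group means, 6 residual and 1.164 prior degrees of freedom) tested the comparisons, with Benjamini-Hochberg adjustment over 175 miRNAs in each and a threshold of 0.05. The fit was tested on simulated data.

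Named in full were, for untreated genotypes and treated wild type cells, members past the threshold measured on every array and up to 12 others by smallest p, and elsewhere each member past it, or the 5 smallest p where fewer than 5 passed. Members, lists and rules were chosen with earlier results of these data known. Alternatives were scaling on all probes, quantile normalization, normexp (offset 50, on the median spot signal), the summed signal, the deposited table, other filters and floor, replicate or run as a block, and leaving out arrays. Sequences are RefSeq's (GRCm38.p6). For 27 members the arm was assigned from the older name.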

Additional observations from a re-analysis of the deposited data

Results flagged for a closer look

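The responses of the genotypes to tunicamycin differed past the threshold in 7 members at 12 h and 8 at 24 h (limma's test of the difference, knockout minus wild type change). At 12 h the differences were 0.67 for miR-411, 0.70 for miR-543, 0.70 for miR-376a*, 0.80 for miR-154*, 0.75 for miR-409-3p, 0.39 for miR-409-5p and 0.81 for miR-369-5p. At 24 h they were 0.61 for miR-411, 0.70 for miR-543, 0.68 for miR-376a*, 0.52 for miR-134, 0.80 for miR-154*, 0.81 for miR-409-3p, 0.39 for miR-409-5p and 0.66 for miR-369-5p. In each of them the wild type fall exceeded the distance between the untreated knockout value and the floor. The counts were 0 with scaling on all probes, quantile normalization, normexp or the deposited table, where 0 of all miRNAs passed. They were 2 and 3 with 0.5 times the floor, where 6 and 9 of all did.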

How the results depend on the processing

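Counts of members past the threshold are given in the order untreated genotypes (18 as reported), wild type at 12 h (17) and 24 h (18), knockout at 12 h (2) and 24 h (1), and difference between responses at 12 h (7) and 24 h (8). Scaling on all probes, normexp and the deposited table gave 0 in all of these, where at most 5 of all miRNAs passed in any comparison. Quantile normalization gave 3, 4, 4, 1, 1, 0 and 0, the summed signal 3, 8, 8, 3, 3, 1 and 1, and probes above background on all arrays 0, 1, 1, 0, 0, 0 and 0, of 2 members. Of all miRNAs 6, 7, 7, 5, 9, 0 and 0 passed with quantile normalization. With the summed signal 8, 29, 27, 10, 9, 2 and 2 of 204 did, and with those probes 0, 19, 21, 7, 6, 0 and 0 of 57. Knockout at 12 h and 24 h had 1 and 2 without a filter, which left 5 for the 24 h response difference, and 5 and 2 with 0.5 times the floor, which left 2 and 3 for the response differences. With the replicate block, knockout at 24 h had 2 and the genotypes at 12 h 1, and no other count moved by over 1.5 times. The run as a block gave 3 for the genotypes at 12 h and 4 and 5 for the response differences. The correlation of replicate differences was 0.74 between the untreated groups and 0.82 to 0.94 among treated groups, which share runs by number, and as low as -0.66 between slides, where equal numbers are different runs. The labels do not say that a number marks a shared experiment, so the block was kept as an alternative.

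Leaving out 1 array gave 14 to 21 members for untreated genotypes, 14 to 18 and 16 to 19 for wild type at 12 h and 24 h, 1 to 7 and 0 to 3 for knockout, 0 to 4 and 0 to 2 for the genotypes at 12 h and 24 h, and 4 to 9 and 4 to 13 for the response differences. Knockout at 12 h had 7 without its replicate 1 and 1 without untreated knockout replicate 2. Knockout at 24 h had 0 without either of its arrays, 3 without either 12 h knockout array and 2 without any 1 treated wild type array. The 24 h response difference had 13 without either 12 h knockout array, 4 without replicate 1 of either genotype at 24 h, and 5 without knockout 24 h replicate 2, untreated wild type replicate 1 or either untreated knockout array. The 12 h response difference had 4 without wild type 12 h replicate 2. The genotypes at 12 h had 4 without knockout 12 h replicate 1. A lone array was assumed to vary like the other groups, and the counts over all tested miRNAs also moved when an array was left out. Without all second treated replicates the counts were 22 for untreated genotypes, 6 and 4 for the genotypes at 12 h and 24 h, 22 and 22 for wild type, 10 and 6 for knockout, and 15 and 20 for the response differences.

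Signs turned as follows. For untreated genotypes the deposited table gave 0.28 for miR-543 and 1.36 for miR-134 (0.80 with the summed signal). For the genotypes at 12 h it gave 0.49 for miR-300, 2.15 for miR-541 and 0.02 for miR-154 (summed signal 0.09 for miR-300 and 0.06 for miR-154), and at 24 h 0.16 for miR-382, 1.09 for miR-410 (0.55 with the summed signal) and a median of 0.36. For wild type at 12 h it gave 1.10 for miR-300, 0.78 for miR-409-3p, 1.78 for miR-154, 2.28 for miR-495, 4.49 for miR-134, 0.86 for miR-382 and a median of 0.16, and the summed signal 0.66 for miR-300, 1.04 for miR-134 and 0.42 for miR-382. For wild type at 24 h miR-300 was 0.74 with the summed signal and 0.51 in the authors' table, and normexp gave 0.10 for miR-154*, 0.13 for miR-409-3p, 0.26 for miR-376a*, 0.20 for miR-543, 0.22 for miR-409-5p, 0.25 for miR-154, 0.14 for miR-411, 0.24 for miR-134, 0.19 for miR-411* and a median of 0.14. For knockout at 12 h miR-300 was 1.73 with the summed signal and 2.01 in the authors' table, miR-154 0.25 and 2.20 (0.09 with normexp), and the median 0.09 with normexp and 0.05 in the deposited table. For knockout at 24 h normexp gave 0.19 for miR-154*, 0.04 for miR-376a, 0.13 for miR-495, 0.05 for miR-410, 0.17 for miR-300 and a median of 0.29. There the deposited table gave 1.51 for miR-495, the summed signal 0.23 for miR-410, and probes above background on all arrays a median of 0.03. The 12 h response difference of miR-409-3p was -0.10 with the summed signal. The cause of these turns was not tested. Of the values chosen by the naming rule, none turned sign when scaled on all probes or with quantile normalization. For miR-299*, miR-329, miR-376b, miR-376c, miR-377, miR-379 and miR-494 over all comparisons, 13 of 63 values did under the former and 6 under the latter, among them miR-299* in knockout cells at 12 h (0.22, then -1.11 and -0.70). Scaling on all probes moved the median of all miRNAs by 0.36 for untreated genotypes, -0.29 and 0.21 for wild type at 12 h and 24 h, and -0.68 and -0.50 for knockout.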

Other observations

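Beyond the cluster, 9 miRNAs of other imprinted loci were on the array. miR-296-5p and miR-483* were flagged on at least 1 array, and 1 of them met the filter and was tested. Its untreated knockout minus wild type difference was -0.34 and did not pass the threshold in limma. At 12 h in wild type cells its change was -0.89, past the threshold.

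RefSeq's Mirg gene (chr12:109734981-109749458, GRCm38.p6) covers 8 of the cluster's 31 hairpins, from that of miR-154 to that of miR-410, and 23 lie upstream of it. The RefSeq promoter windows at the annotated starts of Meg3 (2 starts), Rian and Mirg were searched on both strands for the letters of binding motifs known for ATF6 and related factors. ERSE, ERSE-II and TGACGTGG were in none of the 4 windows, and in 0.119%, 0.0365% and 0.676% of all 32851 windows. The palindrome TGACGTCA, which shares its first letters with the third of these, was in 1 Meg3 window and in 1.79% of all. That window is printed to show the match, which stands in capitals (plus strand, chr12:109540746-109541045). Whether the match bears on the changes of the members was not tested. A match is a description of letters, and no binding was measured.
Meg3: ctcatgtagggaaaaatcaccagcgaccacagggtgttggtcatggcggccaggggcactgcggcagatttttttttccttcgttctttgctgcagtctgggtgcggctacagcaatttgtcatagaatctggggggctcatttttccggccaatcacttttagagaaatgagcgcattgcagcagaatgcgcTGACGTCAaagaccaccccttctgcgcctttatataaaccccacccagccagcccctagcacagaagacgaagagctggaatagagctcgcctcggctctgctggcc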
